A study of Mus musculus with 9 samples.

Results

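The 9 genes described here are Nfkb2, Relb, Nfkbia, Nfkbie, Tnfaip3, Bcl3, Birc3, Traf1 and Icam1, which encode subunits, inhibitors and feedback targets of the transcription factor NF-kB. They were taken by symbol from a list of 10 and make up 9 of the 19938 genes tested. The tenth, Nfkb1, was not analysed here. Each of the 9 has 1 probe set whose platform annotation gives that symbol alone. The cells were BaF3, a line of mouse blood cell precursors that depends on interleukin-3 for growth, after retroviral infection and sorting on EGFP fluorescence. The 3 groups carried BCR-RET, FGFR1OP-RET or BCR-ABL (BCR-ABL1P210 in the design text), with 3 Affymetrix MouseGene 1.0 ST arrays each and total RNA from the same cell line. In the RET fusions a partner protein is joined to the receptor tyrosine kinase RET, and the series title ties them to chronic myelomonocytic leukaemia; BCR-ABL causes chronic myeloid leukaemia. Cells without a fusion were not analysed here and no difference below is against them, and whether interleukin-3 was present during culture is not stated in the labels. Nothing in the labels says whether the cultures behind a group of arrays were infected separately, so a p-value speaks only to the spread among these arrays, and that spread may be technical.

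NF-kB is a family of dimers that IkB proteins hold in the cytoplasm. In the canonical arm, receptors of the TNF, interleukin-1 and Toll-like families trigger the IKK kinase complex, IkB-alpha is degraded, and dimers of RelA or c-Rel with p50 enter the nucleus. In the non-canonical arm, p100 (the product of Nfkb2) is processed to p52, which pairs with RelB. Many NF-kB targets restrain the pathway in turn, among them the genes of IkB-alpha, A20 and p100 itself, so that the transcripts of these genes are often read as a sign of NF-kB activity. In blood cells the pathway supports survival, adhesion and the production of cytokines.

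The promoter sequences are shown because kB sites, the DNA motif that NF-kB binds, are the known route by which it acts on its targets. RefSeq promoter windows of GRCm38.p6, from 250 bases before to 50 after an annotated start, matched 8 of the 9 genes by symbol in 11 windows. The window of Nfkbia, the gene with the largest differences below, lies at chr12:55492598-55492897 on the minus strand. Capitals mark the matches to either of the kB motifs searched.
Nfkbia: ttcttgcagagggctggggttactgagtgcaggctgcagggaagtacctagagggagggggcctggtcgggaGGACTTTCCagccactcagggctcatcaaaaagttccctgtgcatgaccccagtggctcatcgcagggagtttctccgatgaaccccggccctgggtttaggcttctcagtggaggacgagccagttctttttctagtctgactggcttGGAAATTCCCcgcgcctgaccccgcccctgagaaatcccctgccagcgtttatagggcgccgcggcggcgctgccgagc

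The 2 motifs were the NF-kB consensus and the shorter GGANTTTCC, each searched on both strands, and a stretch can match both. The NF-kB consensus was found in 5 of the 8 genes with a window, against 9.55% of 27025 genes with such windows. GGANTTTCC was found in 4 of the 8, against 1.45%. Per window the shares were 7 of 11 and 5 of 11, against 8.46% and 1.25% of 32851 windows, and the NF-kB genes with several starts had overlapping or neighbouring windows. The genes were listed as NF-kB subunits and feedback targets, so these shares may follow from that choice and say nothing about the fusions. A match is a description of the letters and was not tested as a binding site. All but 2 of the other matches are shown, with 10 bases on each side.
Nfkb2, most upstream window, chr19:46304688-46304718, plus strand: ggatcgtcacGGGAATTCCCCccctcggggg
Nfkb2, same window, chr19:46304716-46304745, plus strand: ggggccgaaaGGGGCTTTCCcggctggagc
Nfkb2, downstream windows, chr19:46305695-46305724, plus strand: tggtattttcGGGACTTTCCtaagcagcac
Nfkbie, chr17:45555584-45555613, plus strand: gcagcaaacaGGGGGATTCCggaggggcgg
Tnfaip3, upstream window, chr10:19015403-19015444, minus strand: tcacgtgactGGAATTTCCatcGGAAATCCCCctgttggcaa
Bcl3, chr7:19822734-19822763, minus strand: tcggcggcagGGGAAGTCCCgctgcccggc
Icam1, chr9:21015777-21015805, plus strand: acttcagtttGGAAATTCCtagatcgcag

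The windows of Birc3 and Traf1 held neither motif, which says only that these letters are not in these windows. Icam1 held GGANTTTCC and not the consensus. Counted from the start, the matches began at -178 and -29 in Nfkbia, at -106 in Nfkbie, at -24 in Tnfaip3, at 3 in Bcl3 and at -153 in Icam1. The 2 consensus matches not shown began at -236 from the middle start of Nfkb2 and at -125 from the upstream start of Tnfaip3.

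**Figure D1:**
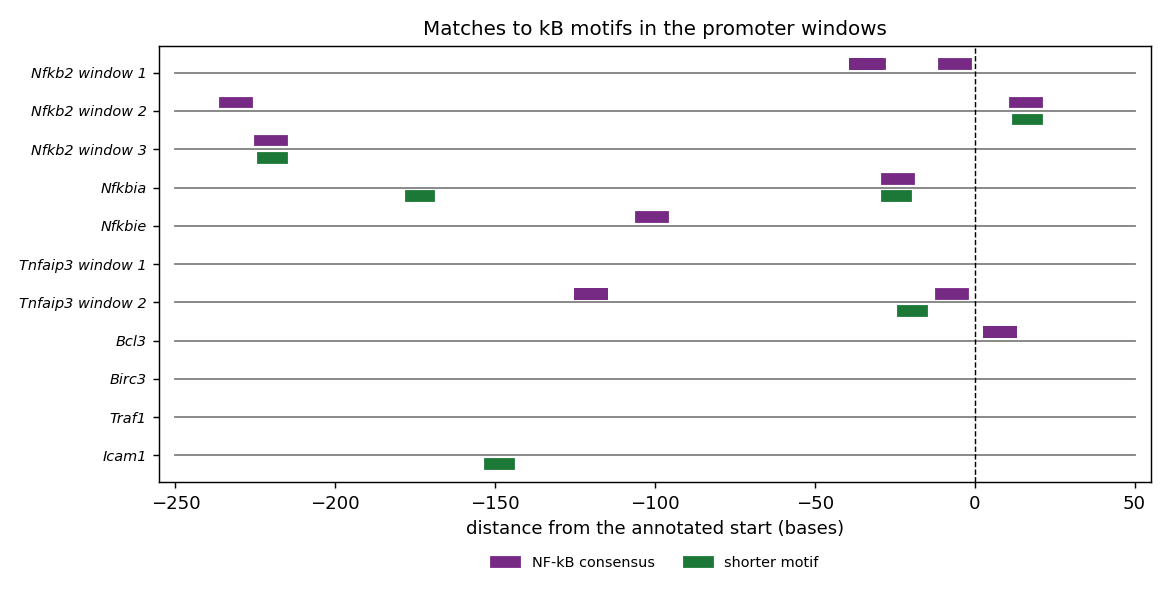
Positions of kB motif matches (boxes, drawn to scale) in the 11 promoter windows of 8 genes, by distance from the annotated start in bases. The downstream Tnfaip3 window and those of Birc3 and Traf1 hold no match; Nfkbia, Nfkb2 and the upstream window of Tnfaip3 hold several.

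The arrays were alike in general: their values correlated with r of 0.993 to 0.996 inside a group and 0.989 to 0.996 across groups. Values are log2 RMA values, and each mean has its SD over 3 arrays. The labelled line could be checked only loosely, since detection calls were not used and probe sets differ in brightness. Of 12 markers of BaF3 and the early B lineage, 7 (Kit, Cd34, Vpreb1, Igll1, Ebf1, Cd79a and Rag1) lay below the median gene level of 8.19 on every array, between 5.94 and 7.95. The other 5 lay above it: the interleukin-3 receptor genes Il3ra (10.24 to 10.60), Csf2rb (11.92 to 12.89) and Csf2rb2 (11.07 to 12.24), the leukocyte gene Ptprc (11.43 to 11.86) and the B cell receptor gene Cd79b (9.47 at its lowest). Some of these passed between the fusions (limma, adjusted p): Csf2rb was higher than in BCR-ABL cells by 0.72 with BCR-RET (0.00819) and 0.69 with FGFR1OP-RET (0.00649), and Csf2rb2 by 0.90 (0.00278) and 0.56 (0.0236). Ptprc was lower with BCR-RET than with FGFR1OP-RET (-0.36, limma adjusted p = 0.0182). The Csf2rb2 call for FGFR1OP-RET reached 0.131 without BCR-ABL replicate 2, and the Ptprc call 0.0773 without BCR-RET replicate 3. Their part in the results below was not tested. None of 6 stromal markers and none of the 5 measured T cell markers passed the test in any comparison. Of 7 measured monocyte and macrophage markers, 3 were higher in FGFR1OP-RET than in BCR-ABL cells, and 2 were lower in BCR-RET than in FGFR1OP-RET cells. In RNA from a bulk culture, more cells of a kind and more RNA per cell cannot be told apart.

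Cells with BCR-RET had the highest mean of the 3 groups in 8 of the 9 genes, the exception being Traf1. The share of all genes with their highest mean in BCR-RET cells was not counted, so this count is a description. In Nfkb2 the RET fusions were nearly level at 10.42 for BCR-RET and 10.41 for FGFR1OP-RET. All 9 genes had a mean in BCR-RET cells above that in BCR-ABL cells, and 8 of 9 had a mean in FGFR1OP-RET cells above that in BCR-ABL cells, against 60.7% and 50.8% of all genes. Between the RET fusions the mean was higher with BCR-RET in 8 of 9, against 60.5%. Some of these signs rest on nearly level means. In FGFR1OP-RET against BCR-ABL the differences were 0.009 for Relb, 0.003 for Birc3, 0.056 for Tnfaip3 and 0.08 for Nfkbia. Between the RET fusions they were 0.008 for Nfkb2, 0.02 for Icam1 and 0.022 for Nfkbie. Each of these changed sign when certain single arrays were left out. The differences were small: apart from those of Nfkbia none was above 0.25 on the log2 scale, and none of the 9 genes passed the test of any comparison in limma (Benjamini-Hochberg adjusted p under 0.05 over all 19938 genes), where 0.587% of all genes passed for BCR-RET against BCR-ABL, 1.02% for FGFR1OP-RET against BCR-ABL and 1.33% for BCR-RET against FGFR1OP-RET.

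**Figure D2:**
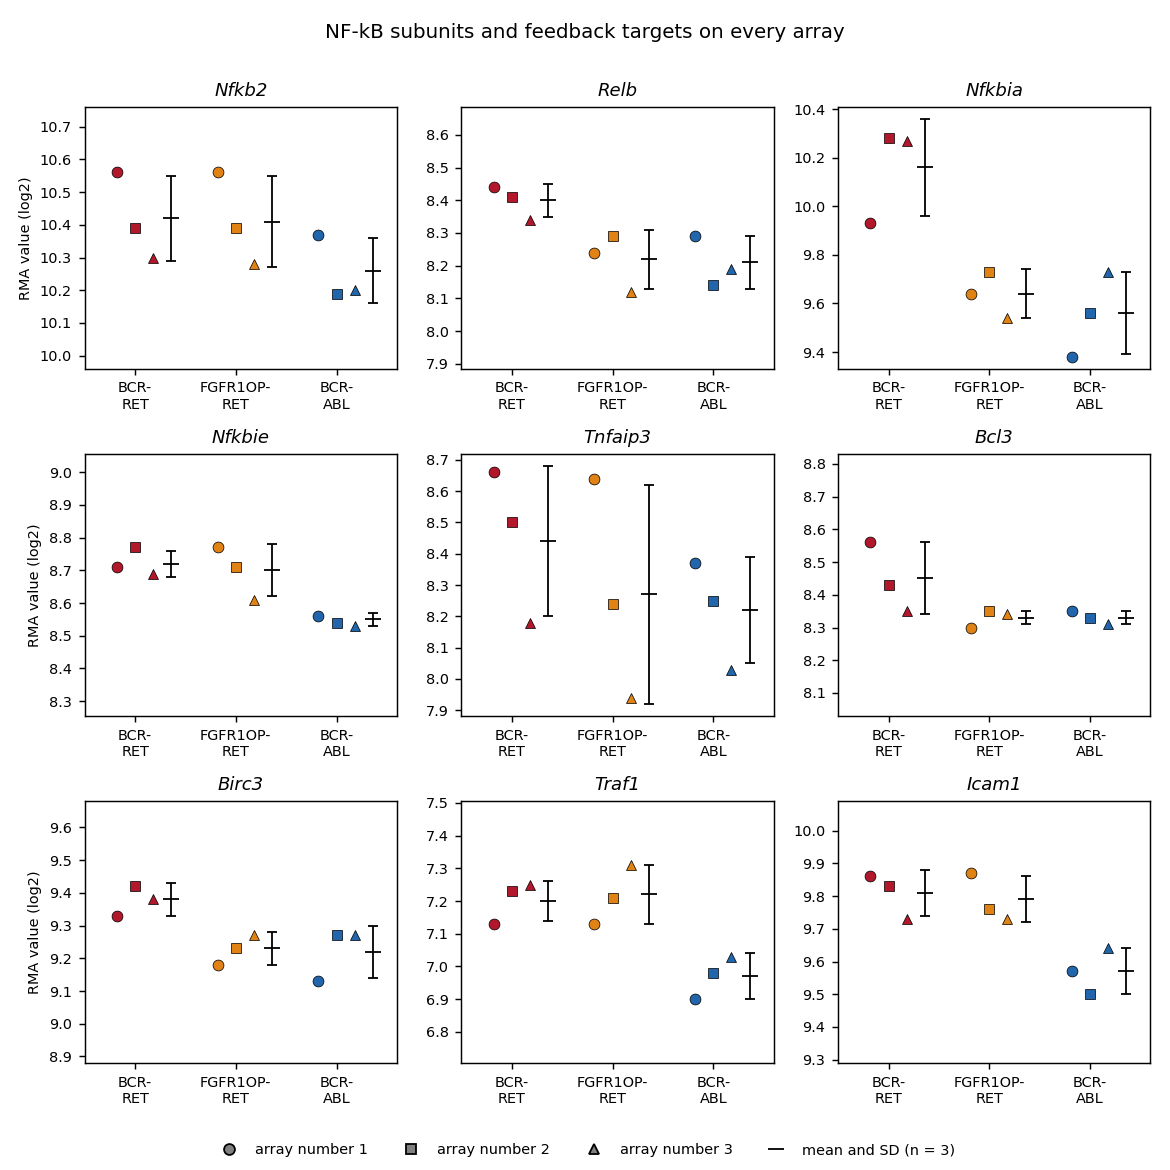
RMA values (log2, y axis) of the 9 genes on each of the 9 arrays, by fusion; the symbol gives the array number in the labels and the bar the mean and SD of 3 arrays. All 3 BCR-RET arrays of Nfkbia, at 9.93 to 10.28, sit above the other 6, at 9.38 to 9.73, and both RET fusions sit above BCR-ABL in Nfkbie, Traf1 and Icam1.

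Among the inhibitors, Nfkbia stood out. It encodes IkB-alpha, the fastest of the NF-kB feedback inhibitors. Its values were 9.93, 10.28 and 10.27 on the BCR-RET arrays, 9.64, 9.73 and 9.54 on the FGFR1OP-RET arrays, and 9.38, 9.56 and 9.73 on the BCR-ABL arrays. Every BCR-RET array was above every other array, and the ranges of FGFR1OP-RET and BCR-ABL overlapped. The mean in BCR-RET cells was 1.52-fold that in BCR-ABL cells (10.16 ± 0.20 and 9.56 ± 0.17, log2 difference 0.60, SE 0.11). In limma this difference missed the threshold with the array numbers ignored (adjusted p = 0.0595) and passed with the number as a block (adjusted p = 0.0104). With the block 2 of the 9 genes passed, Nfkbia and Traf1, against 1.82% of all genes. The same-number differences of Nfkbia were 0.55, 0.72 and 0.54.

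Against FGFR1OP-RET cells the mean of Nfkbia in BCR-RET cells was 1.44-fold (10.16 ± 0.20 and 9.64 ± 0.10, log2 difference 0.52, SE 0.11, limma adjusted p = 0.067). This comparison shares the BCR-RET arrays with the one against BCR-ABL. FGFR1OP-RET differed from BCR-ABL in Nfkbia by 0.08 (95% interval -0.17 to 0.33, limma adjusted p = 0.878). Without BCR-RET replicate 1, which had the lowest Nfkbia value of its group, the differences of BCR-RET from BCR-ABL and from FGFR1OP-RET were 0.72 and 0.64, and both passed (adjusted p = 0.0264 and 0.0282).

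Nfkbie encodes IkB-epsilon, a slower inhibitor of the same family. It measured 8.71, 8.77 and 8.69 on the BCR-RET arrays, 8.77, 8.71 and 8.61 on the FGFR1OP-RET arrays, and 8.56, 8.54 and 8.53 on the BCR-ABL arrays. Both RET groups lay wholly above BCR-ABL and overlapped each other. The differences from BCR-ABL were 0.18 (SE 0.053, limma adjusted p = 0.261) for BCR-RET and 0.15 (SE 0.053, adjusted p = 0.342) for FGFR1OP-RET, and those comparisons share the BCR-ABL arrays. Between the RET fusions Nfkbie differed by 0.022 (95% interval -0.10 to 0.14).

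Bcl3, an atypical IkB protein that acts in the nucleus with p50 and p52, had values of 8.56, 8.43 and 8.35 on the BCR-RET arrays, 8.30, 8.35 and 8.34 on the FGFR1OP-RET arrays, and 8.35, 8.33 and 8.31 on the BCR-ABL arrays. The lowest BCR-RET array met the highest arrays of the other groups, so no group of Bcl3 stood apart. The same deposited value of Bcl3 stood on several arrays, with 7 distinct values on 9 arrays. BCR-RET differed from BCR-ABL by 0.12 (95% interval -0.01 to 0.25) and FGFR1OP-RET from BCR-ABL by -0.001 (95% interval -0.13 to 0.13). The same-number differences of Bcl3 between BCR-RET and BCR-ABL were 0.21, 0.10 and 0.04 (limma adjusted p = 0.355 with the block).

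Tnfaip3 encodes A20, an enzyme that edits ubiquitin chains and shuts down signalling to IKK. It measured 8.66, 8.50 and 8.18 on the BCR-RET arrays, 8.64, 8.24 and 7.94 on the FGFR1OP-RET arrays, and 8.37, 8.25 and 8.03 on the BCR-ABL arrays. The groups overlapped widely, and the array numbered 1 was the highest of each group. The SD of Tnfaip3, 0.24, 0.35 and 0.17 in the same order, was the widest of the 9 genes in the RET fusion groups and gave the widest intervals. BCR-RET differed from BCR-ABL by 0.23 (95% interval -0.17 to 0.63, limma adjusted p = 0.633). With the array number as a block the SE of Tnfaip3 was 0.0706, against 0.18 without it, and the adjusted p was 0.155. The same-number differences of Tnfaip3 between these groups were 0.28, 0.25 and 0.15.

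The measured subunits were those of the non-canonical arm. Nfkb2, the gene of p100 and p52, had values of 10.56, 10.39 and 10.30 on the BCR-RET arrays, 10.56, 10.39 and 10.28 on the FGFR1OP-RET arrays, and 10.37, 10.19 and 10.20 on the BCR-ABL arrays. Arrays of the same number in the RET fusion groups were within 0.02 of each other. The groups overlapped, and the differences from BCR-ABL were 0.16 (95% interval -0.04 to 0.37) for BCR-RET and 0.15 (95% interval -0.05 to 0.36) for FGFR1OP-RET. The same-number differences of Nfkb2 between BCR-RET and BCR-ABL were 0.19, 0.20 and 0.10 (limma adjusted p = 0.161 with the block).

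Relb, the partner of p52, measured 8.44, 8.41 and 8.34 on the BCR-RET arrays, 8.24, 8.29 and 8.12 on the FGFR1OP-RET arrays, and 8.29, 8.14 and 8.19 on the BCR-ABL arrays. As with Nfkbia, all BCR-RET arrays lay above the other 6. The differences of BCR-RET were 0.19 from BCR-ABL (SE 0.063, limma adjusted p = 0.304) and 0.18 from FGFR1OP-RET (SE 0.063, adjusted p = 0.237). FGFR1OP-RET differed from BCR-ABL by 0.009 (95% interval -0.13 to 0.15).

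Birc3 and Traf1 encode proteins that meet at TNF receptors: Birc3 is the ubiquitin ligase cIAP2, which blocks cell death, and Traf1 an adaptor that binds TRAF2. Birc3 measured 9.33, 9.42 and 9.38 on the BCR-RET arrays, 9.18, 9.23 and 9.27 on the FGFR1OP-RET arrays, and 9.13, 9.27 and 9.27 on the BCR-ABL arrays. The BCR-RET arrays of Birc3 again lay above the other 6, with differences of 0.15 from each of the other fusions (SE 0.056, limma adjusted p = 0.349 against BCR-ABL and 0.265 against FGFR1OP-RET). FGFR1OP-RET and BCR-ABL differed in Birc3 by 0.003 (95% interval -0.12 to 0.13).

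Traf1 had the other pattern, with values of 7.13, 7.23 and 7.25 on the BCR-RET arrays, 7.13, 7.21 and 7.31 on the FGFR1OP-RET arrays, and 6.90, 6.98 and 7.03 on the BCR-ABL arrays. Both RET groups lay wholly above BCR-ABL and overlapped each other. BCR-RET was 0.23 above BCR-ABL (SE 0.063, limma adjusted p = 0.205), and with the array number as a block it passed narrowly (adjusted p = 0.0497), with same-number differences of 0.24, 0.25 and 0.21. FGFR1OP-RET was 0.25 above BCR-ABL (SE 0.063, adjusted p = 0.15), and the RET fusions differed from each other by -0.013 (95% interval -0.15 to 0.13).

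Icam1, the adhesion receptor that binds the leukocyte integrin LFA-1, followed Traf1. It measured 9.86, 9.83 and 9.73 on the BCR-RET arrays, 9.87, 9.76 and 9.73 on the FGFR1OP-RET arrays, and 9.57, 9.50 and 9.64 on the BCR-ABL arrays. No RET fusion array was as low as a BCR-ABL array. The differences from BCR-ABL were 0.24 for BCR-RET (SE 0.061, limma adjusted p = 0.187) and 0.22 for FGFR1OP-RET (SE 0.061, adjusted p = 0.218), and the RET fusions differed by 0.02 (95% interval -0.12 to 0.16). The intervals given for single genes are not adjusted for the number of genes.

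**Figure D3:**
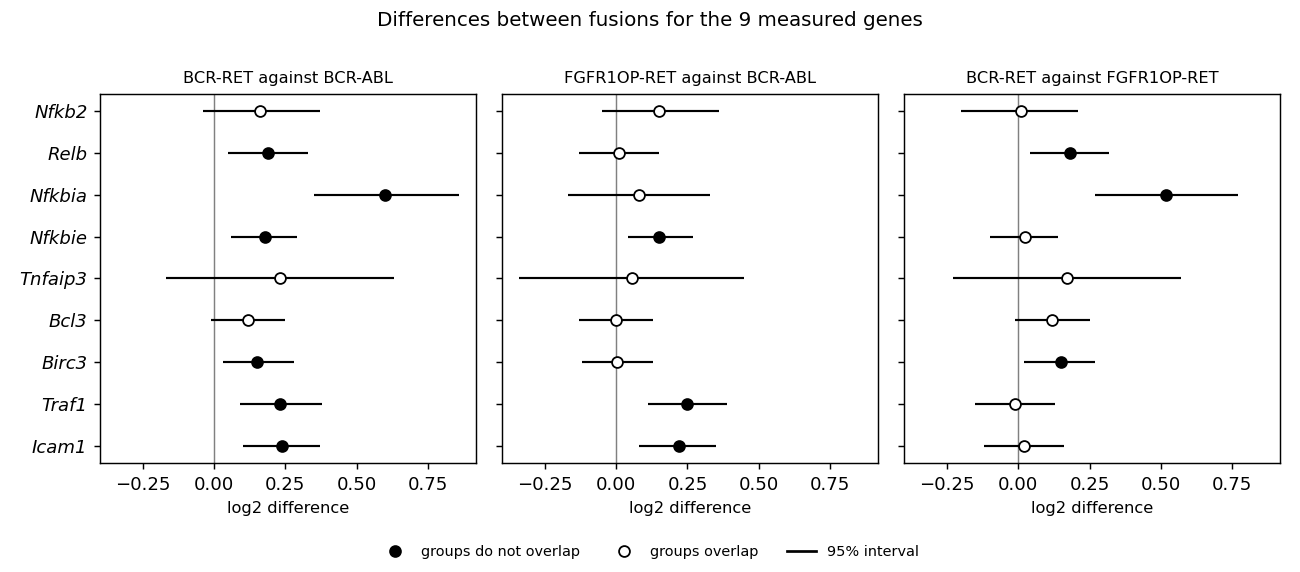
Log2 differences (x axis) of the 9 genes (y axis) in the 3 comparisons, with 95% intervals from the limma fit, not adjusted for the number of genes; filled points mark groups whose arrays do not overlap. Nfkbia has the largest difference wherever BCR-RET is compared, at 0.60 and 0.52, while Traf1, Icam1 and Nfkbie are apart from 0 in FGFR1OP-RET against BCR-ABL.

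The counts of groups that do not overlap gave the pattern over the genes. In BCR-RET against BCR-ABL, 6 of 9 genes (Relb, Nfkbia, Nfkbie, Birc3, Traf1 and Icam1) had every BCR-RET array above every BCR-ABL array and none lay wholly below, where 10.7% of all genes lay wholly above and 5.90% wholly below. In FGFR1OP-RET against BCR-ABL these were 3 of 9 (Nfkbie, Traf1 and Icam1), against 6.94% of all genes, and none lay wholly below, against 5.13%. The 3 monocyte and macrophage markers that rose in this comparison were Cd14, Mpeg1 and Fcgr1, and their part in the result was not tested. Without BCR-ABL replicate 3 the limma adjusted p reached 0.147 for Fcgr1 and 0.0597 for Mpeg1. In BCR-RET against FGFR1OP-RET 3 of 9 genes (Relb, Nfkbia and Birc3) lay wholly above, against 8.77%, and none wholly below, against 6.49%. In each comparison the genes with an unadjusted limma p under 0.05 were these same 6, 3 and 3, against 7.39%, 5.50% and 8.37% of all genes that were higher at that p. The 9 genes were chosen with earlier results of these data known, and the comparisons share arrays, so the counts are a description.

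Set side by side, the 9 genes could be sorted in 3 ways by the overlap of their arrays. The share of all genes in each was not counted. None of the 9 genes passed with the array numbers ignored, so the sorting is a description. Some gaps were narrow, as in Relb, with 8.34 on the lowest BCR-RET array and 8.29 on the highest BCR-ABL array. Nfkbia, Relb and Birc3 were apart in BCR-RET cells alone, with FGFR1OP-RET and BCR-ABL overlapping. Nfkbie, Traf1 and Icam1 were apart from BCR-ABL in both RET fusions, with the RET fusions overlapping. Nfkb2, Tnfaip3 and Bcl3 overlapped in every pair of groups, although their 3 same-number differences between BCR-RET and BCR-ABL were all above 0, and none of the 3 genes passed with the block. The median log2 difference of the 9 genes was 0.19 (all genes 0.026) for BCR-RET against BCR-ABL, 0.08 (all genes 0.001) for FGFR1OP-RET against BCR-ABL, and 0.12 (all genes 0.025) for BCR-RET against FGFR1OP-RET. The array numbered 1 was the highest of all 3 groups in Nfkb2 and Tnfaip3, 2 of the 9 genes, against 7.38% of all genes, and the lowest of all 3 groups in Birc3 and Traf1, again 2 of 9, against 11.8%.

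**Figure D4:**
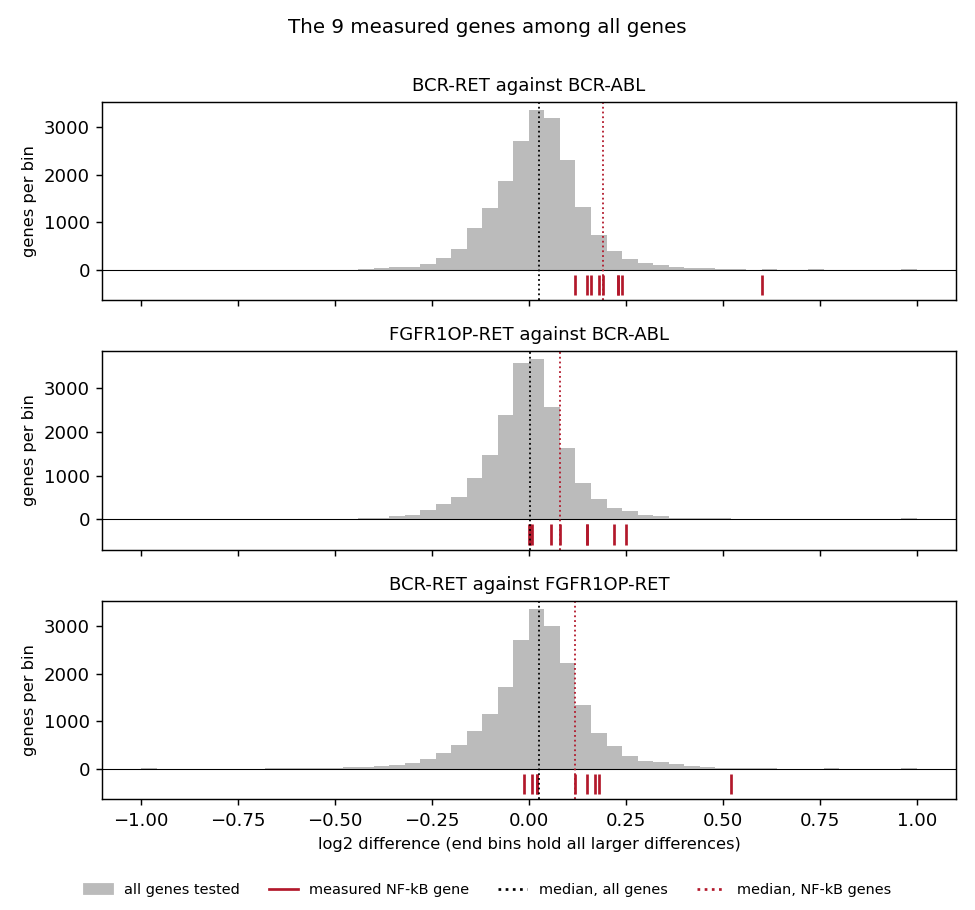
Log2 differences of all 19938 genes tested (grey histogram, genes per bin of 0.04) with the 9 NF-kB genes as red ticks, in the 3 comparisons; dotted lines mark the medians. In BCR-RET against BCR-ABL all 9 ticks lie right of the median of all genes, with Nfkbia at 0.60 and the median of the 9 at 0.19.

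The other genes of the pathway were read from 5 further lists. None of 5 other NF-kB and IkB family genes passed in any comparison with the array numbers ignored. With the number as a block, 2 were higher in FGFR1OP-RET than in BCR-ABL, and 1 was lower in BCR-RET than in FGFR1OP-RET. Rela, the main activating subunit, had means of 11.50, 11.68 and 11.57 in BCR-RET, FGFR1OP-RET and BCR-ABL cells, and Rel, the gene of c-Rel, had 10.60, 10.97 and 10.76. The median difference of this list was -0.013 with BCR-RET set against BCR-ABL, 0.20 with FGFR1OP-RET set against BCR-ABL, and -0.19 with BCR-RET set against FGFR1OP-RET. In the last comparison the 9 genes above had a median of 0.12.

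None of 22 measured signal components, such as the IKK subunits and TRAF proteins, and none of 12 other inhibitors passed in any comparison with the array numbers ignored. With the number as a block, 1 signal component passed in BCR-RET against BCR-ABL, the adaptor gene Traf5 (0.33, limma adjusted p = 0.0167 with the block and 0.186 without; same-number differences 0.32, 0.41 and 0.26). The signal component Rnf31 was lower in BCR-RET than in FGFR1OP-RET (-0.28, 0.021 with the block and 0.215 without). The inhibitor Irak3 was higher in FGFR1OP-RET than in BCR-ABL (0.41, 0.0138 and 0.163). Irak3 was also lower in BCR-RET than in FGFR1OP-RET (-0.42, 0.01 and 0.118). The numbers were not taken as pairs in the comparisons with FGFR1OP-RET. The medians of the signal components were -0.017, 0.042 and -0.023 in the same order of comparisons, and those of the inhibitors -0.048, -0.007 and -0.089. At an unadjusted limma p under 0.05, 1 signal component was higher and 2 were lower with BCR-RET than with BCR-ABL, 2 were higher and 1 lower with FGFR1OP-RET than with BCR-ABL, and 4 were lower with BCR-RET than with FGFR1OP-RET. At that level the inhibitors had none, 3 higher and 1 lower, and the other family genes none, 2 higher and 2 lower, in the same order. Over all 19938 genes 1473 were higher and 798 lower, 1097 higher and 846 lower, and 1669 higher and 1295 lower, in that order.

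Among 21 measured receptors and ligands, Tnfrsf9, the costimulatory receptor 4-1BB that signals to NF-kB through TRAF proteins, passed in all 3 comparisons. It measured 11.81, 12.09 and 12.00 on the BCR-RET arrays, 10.29, 9.89 and 10.32 on the FGFR1OP-RET arrays, and 10.73, 10.72 and 10.93 on the BCR-ABL arrays. It was 1.17 higher in BCR-RET than in BCR-ABL (limma adjusted p = 0.00326), 1.80 higher in BCR-RET than in FGFR1OP-RET (adjusted p = 2.68e-04), and 0.63 lower in FGFR1OP-RET than in BCR-ABL (adjusted p = 0.0486, a call that ended whichever of the 9 arrays was left out). The cytokine gene Lta rose in BCR-RET against FGFR1OP-RET by 0.56 (adjusted p = 0.00954), with 8.39, 8.25 and 8.10 in BCR-RET cells against 7.75, 7.63 and 7.69 in FGFR1OP-RET cells. Without FGFR1OP-RET replicate 2 it reached an adjusted p = 0.0545. Cd14, the coreceptor of Toll-like receptor 4, rose in FGFR1OP-RET against BCR-ABL by 1.06 (adjusted p = 0.0146, and 0.0971 without BCR-ABL replicate 2) and fell in BCR-RET against FGFR1OP-RET by 1.21 (adjusted p = 0.00775). Cd14 is also among the monocyte and macrophage markers. With the number as a block, 3 receptors and ligands were higher in BCR-RET than in BCR-ABL, against 1 without it: besides Tnfrsf9, Lta (0.30, adjusted p = 0.0359 with the block and 0.167 without) and Tnfsf13b, the gene of the B cell survival factor BAFF (0.38, 0.0161 and 0.197).

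Of 29 other known NF-kB targets, 5 rose in BCR-RET against BCR-ABL and none were past the threshold downwards with the array numbers ignored. Over all 19938 genes these counts were 74 and 43. With the number as a block, 7 were higher and 1 was lower, against 237 and 125 over all genes. Gaining a call with the block were the chemokine receptor gene Ccr7 (0.29, limma adjusted p = 0.0301 with the block and 0.114 without), the lipocalin gene Lcn2 (0.87, 0.0272 and 0.14) and, lower, the survival gene Bcl2l1 (-0.38, 0.0341 and 0.242). Lcn2 was also higher in FGFR1OP-RET than in BCR-ABL (1.04, 0.00796 with the block and 0.0533 without). BCR-RET differed from FGFR1OP-RET in Lcn2 by -0.16 (limma adjusted p = 0.748). Il6, an inflammatory cytokine gene, measured 10.83, 10.79 and 11.05 on the BCR-RET arrays, 9.98, 9.67 and 9.80 on the FGFR1OP-RET arrays, and 9.75, 9.92 and 9.78 on the BCR-ABL arrays. Its BCR-RET arrays stood apart, as those of Nfkbia did, by 1.07 from BCR-ABL (limma adjusted p = 0.00153). The chemokine gene Cxcl10 measured 8.79, 9.14 and 8.65 on the BCR-RET arrays, 8.09, 8.09 and 8.05 on the FGFR1OP-RET arrays, and 7.74, 7.64 and 7.70 on the BCR-ABL arrays, with no overlap between any of the groups. Its difference of BCR-RET from BCR-ABL was 1.16 (adjusted p = 0.00153), and that of FGFR1OP-RET from BCR-ABL was 0.38 and did not pass (adjusted p = 0.197). Also higher in BCR-RET than in BCR-ABL were Il2ra, the alpha chain of the interleukin-2 receptor (0.80, adjusted p = 0.0109), the stress gene Gadd45b (0.59, adjusted p = 0.0241) and the death receptor gene Fas (0.35, adjusted p = 0.0258). The count was 2 to 6 without each array in turn, and without BCR-ABL replicate 2 the adjusted p of Il2ra, Gadd45b and Fas was 0.0711, 0.124 and 0.137.

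In FGFR1OP-RET against BCR-ABL other members of the same list were past the threshold, 2 higher and none lower (all genes 157 and 46). With the number as a block, 7 were higher and none lower, though the numbers were not taken as pairs here. At an unadjusted limma p under 0.05, 14 were higher and none lower, against 10 and 3 in BCR-RET against BCR-ABL. Of all genes 5.50% and 7.39% were higher at that p in these comparisons. The median difference of the list was 0.14 in both. The chemokine gene Ccl3 measured 10.45, 11.06 and 10.88 in FGFR1OP-RET cells against 9.47, 9.54 and 9.60 in BCR-ABL cells (difference 1.26, limma adjusted p = 0.0464). The chemokine gene Cxcl2 measured 7.18, 7.10 and 6.80 in FGFR1OP-RET cells against 6.51, 6.38 and 6.43 in BCR-ABL cells (difference 0.59, adjusted p = 0.0292). Each of these calls ended when certain single arrays were left out, 6 of the 9 in either gene, with an adjusted p up to 0.208 for Ccl3 without FGFR1OP-RET replicate 2 and 0.16 for Cxcl2 without BCR-ABL replicate 2. Like Ccl3 and Cxcl2, the mean of the 7 monocyte and macrophage markers was highest in FGFR1OP-RET cells. Per array it ran from 8.82 to 9.28 in FGFR1OP-RET cells, 8.50 to 8.64 in BCR-RET cells and 8.34 to 8.37 in BCR-ABL cells. Its part in the result was not tested.

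Between the RET fusions the list split: 3 of 29 rose and 2 fell in BCR-RET against FGFR1OP-RET, against 95 and 170 of all 19938 genes. Il6 (1.07, limma adjusted p = 0.0018), Il2ra (0.90, adjusted p = 0.0053) and Cxcl10 (0.78, adjusted p = 0.00863) were higher in BCR-RET. The gelatinase gene Mmp9 fell by 1.44 (adjusted p = 0.00591), with 8.97, 8.98 and 9.17 in BCR-RET cells against 10.30, 10.98 and 10.18 in FGFR1OP-RET cells. Ccl3 fell by 1.37 (adjusted p = 0.0322, and 0.122 without FGFR1OP-RET replicate 2), and Cxcl10 reached 0.0501 without FGFR1OP-RET replicate 2. The median difference of the list in this comparison was 0.048.

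**Figure D5:**
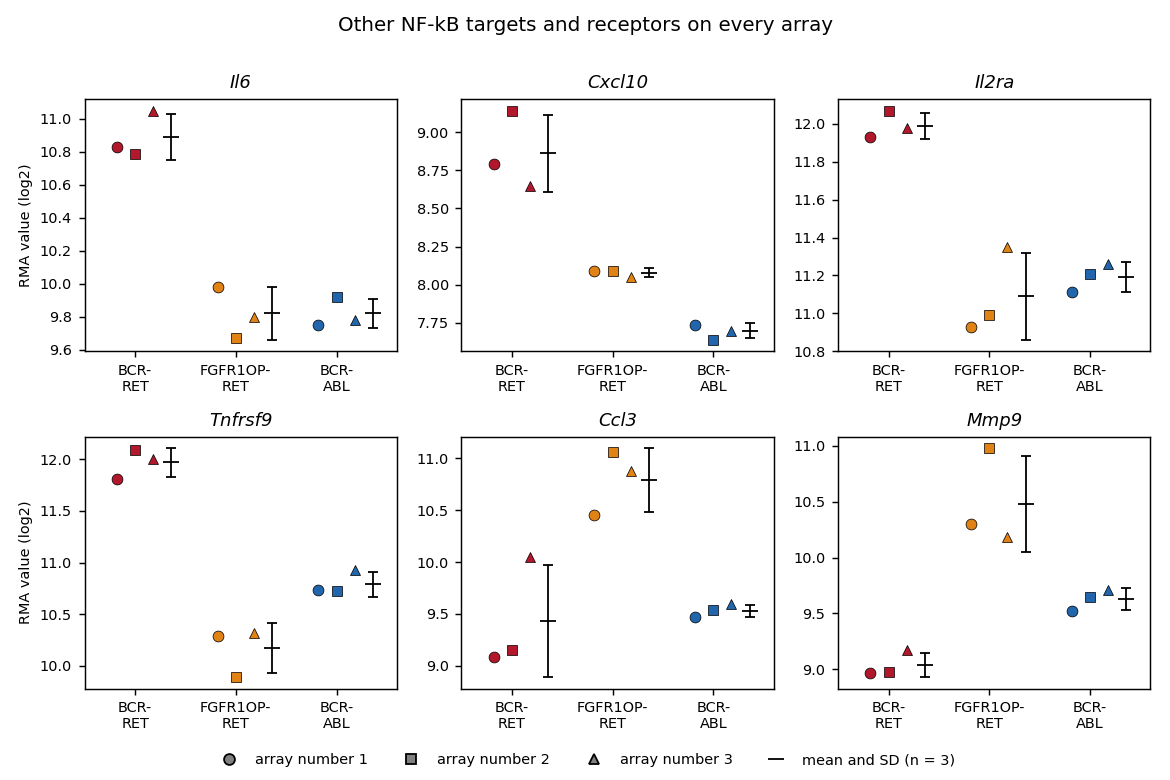
RMA values (log2, y axis) of 6 other genes of the pathway lists on each of the 9 arrays, by fusion; symbols give the array number and bars the mean and SD of 3 arrays. Il6, Cxcl10, Il2ra and Tnfrsf9 are highest in BCR-RET cells, while Ccl3 and Mmp9 are highest in FGFR1OP-RET cells.

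A mean profile of the 9 genes, each centred on its mean over the 9 arrays, stood at 0.14, 0.15 and 0.066 on the BCR-RET arrays, 0.05, 0.004 and -0.082 on the FGFR1OP-RET arrays, and -0.11, -0.13 and -0.10 on the BCR-ABL arrays. The 5 other genes with the highest Pearson r with it over the 9 arrays, which fall into 3 groups, were Ifit3 (0.966), an interferon-induced gene; Tnfrsf18 (0.961), the costimulatory receptor GITR; Fas (0.96); BC051665 (0.948); and Alppl2 (0.945). Since they were picked by this r, that their means followed the order of the profile reflects the selection and is no separate result. Tnfrsf18 had 8.11 ± 0.06 in BCR-RET cells, 7.82 ± 0.12 in FGFR1OP-RET cells and 7.71 ± 0.08 in BCR-ABL cells (SD, n = 3). Tnfrsf18 was 0.41 higher with BCR-RET than with BCR-ABL (limma adjusted p = 0.042, and 0.203 without BCR-ABL replicate 2), and Ifit3 0.69 higher (adjusted p = 0.0109, and 0.0646 without BCR-ABL replicate 2). BC051665 and Alppl2 passed in no comparison, with a lowest limma adjusted p of 0.0713 and 0.0745, both in BCR-RET against BCR-ABL.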

How the data were processed

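The values are gene-level RMA values on the log2 scale as the authors deposited them, made in Affymetrix Expression Console according to the labels and the submitters' processing notes; its version and annotation are not given in the sources used. Because RMA equalises the arrays, a shift shared by most transcripts would be removed, and the number of arrays limits the precision. Of 35557 probe sets, 21789 had 1 symbol in the platform annotation, 1621 several and 12147 none. Only the first were used, and the probe set with the highest 9-array mean was kept for each of 19938 genes. Symbols were checked through Entrez identifiers against a GRCm38.p6 gene table, which changed 0 and lacked 91.

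Group means were fitted on all 9 arrays with limma 3.58.1 in R 4.3.3 (lmFit, eBayes), with Benjamini-Hochberg adjustment over all genes at 0.05. Adjusted p-values are from this fit where no other is named. On simulated data with 19938 genes it recovered 86% of changes of 0.5 for BCR-RET against BCR-ABL, 72% for FGFR1OP-RET against BCR-ABL and 77% for BCR-RET against FGFR1OP-RET. Each share came from a separate random draw with the same design and gene spreads, so the shares do not rank the comparisons. The simulated noise was independent between arrays, also those of the same number, and changes below 0.5 were not simulated. Deviations from group means correlated between same-numbered BCR-RET and BCR-ABL arrays with r of 0.617, 0.155 and 0.367 for numbers 1, 2 and 3, all above the limit of 0.1 for pairing, so the text gives its blocked values where a call changes. Its count of genes was 117 without and 362 with the block.

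The genes described and the pathway lists were chosen with earlier results of these data known. The genes named by rule are those 9, up to 4 per list and comparison past the threshold with the largest differences, and the 5 most like the mean profile, among them Fas. Named outside it, after values were seen, were Cxcl10 in BCR-RET against FGFR1OP-RET and the list genes whose call the block changed; markers are named as checks. Alternatives were the replicate block, leaving out each array, the 6 arrays compared alone, a filter on low genes, the mean over probe sets, all probe sets, a trended robust prior and quantile normalization.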

Additional observations from a re-analysis of the deposited data

Results flagged for a closer look

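The effects of the RET fusions against BCR-ABL differed from each other in 8 genes of the pathway lists, by the test of BCR-RET against FGFR1OP-RET, and in none of the 9 NF-kB genes. The log2 difference of BCR-RET from FGFR1OP-RET was 1.80 for Tnfrsf9, 1.07 for Il6, 0.90 for Il2ra, 0.78 for Cxcl10 and 0.56 for Lta. It was -1.21 for Cd14, -1.37 for Ccl3 and -1.44 for Mmp9. Without FGFR1OP-RET replicate 2 the limma adjusted p reached 0.122 for Ccl3, 0.0545 for Lta and 0.0501 for Cxcl10. In Tnfrsf9 the RET fusions lay on opposite sides of BCR-ABL, at 1.17 for BCR-RET and -0.63 for FGFR1OP-RET. The call of Tnfrsf9 in FGFR1OP-RET against BCR-ABL ended whichever of the 9 arrays was left out. Nfkbia, with a difference of 0.52 between the RET fusions, did not pass (limma adjusted p = 0.067).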

How the results depend on the processing

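Of 429 differences of the 9 genes recomputed under 16 alternatives, 398 kept their sign and their side of the threshold, 10 passed where the value reported did not, and 21 changed sign, all of these from a reported size of at most 0.08. The filter on low genes left out Traf1. Of 454 recomputed differences of the other named genes and markers past the threshold, 340 stayed past it, 114 missed it and none changed sign. With the replicate number as a block the number of the 9 genes past the threshold was 2 in BCR-RET against BCR-ABL, 1 in FGFR1OP-RET against BCR-ABL (Traf1, adjusted p = 0.0295) and 1 in BCR-RET against FGFR1OP-RET (Nfkbia, adjusted p = 0.0114), and the counts of all genes were 362, 576 and 1135, against 117, 203 and 265 without it. In the last 2 comparisons the numbers were not taken as pairs, since not every number correlated above 0.1: r for numbers 1, 2 and 3 was 0.382, -0.128 and 0.40 in FGFR1OP-RET against BCR-ABL and 0.498, -0.152 and 0.41 in BCR-RET against FGFR1OP-RET. With the filter on low genes, where fewer genes were tested and Traf1 was not, Nfkbia alone passed in both BCR-RET comparisons. Its limma adjusted p was then 0.0441 against BCR-ABL and 0.0474 against FGFR1OP-RET. With quantile normalization Nfkbia again passed alone, 1 of the 9 genes in each of these comparisons (0.0393 and 0.0412, the cause was not tested). With each array left out in turn, 0 to 1 of the 9 genes passed in each BCR-RET comparison and 0 in FGFR1OP-RET against BCR-ABL. The counts of all genes were then 28 to 114, 70 to 185 and 86 to 194, in the order of comparisons just given for the block. They were 56, 94 and 34 with the 6 arrays compared alone and 73, 121 and 101 with all probe sets. The adjusted p of Nfkbia without each array ran from 0.0264 to 0.245 against BCR-ABL and 0.0282 to 0.233 against FGFR1OP-RET.

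In FGFR1OP-RET against BCR-ABL, quantile normalization turned the differences of Relb and Birc3 to -0.015 and -0.019. Without each array they ran from -0.029 to 0.057 for Relb, -0.042 to 0.028 for Birc3, -0.0064 to 0.17 for Nfkbia, -0.13 to 0.22 for Tnfaip3 and -0.0098 to 0.013 for Bcl3. In BCR-RET against FGFR1OP-RET they ran from -0.063 to 0.083 for Nfkb2, -0.02 to 0.059 for Nfkbie, -0.055 to 0.033 for Traf1 and -0.0095 to 0.061 for Icam1.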

Other observations

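The atypical IkB genes Nfkbid and Nfkbiz, picked after their values were seen, had their highest mean with FGFR1OP-RET. Nfkbiz, whose product acts on secondary response genes, measured 9.52, 9.36 and 9.15 on the FGFR1OP-RET arrays, 9.22, 9.12 and 9.10 on the BCR-RET arrays, and 9.04, 8.86 and 8.97 on the BCR-ABL arrays. FGFR1OP-RET lay above BCR-ABL by 0.38 without passing (SE 0.092, limma adjusted p = 0.117), and passed with the array number as a block (adjusted p = 0.0197). Nfkbid averaged 9.38 with FGFR1OP-RET, 9.09 with BCR-RET and 9.10 with BCR-ABL. Its difference of FGFR1OP-RET from BCR-ABL was 0.28 (limma adjusted p = 0.299, and 0.0355 with the block). That of BCR-RET from FGFR1OP-RET was -0.29 (limma adjusted p = 0.189, and 0.0205 with the block). The numbers were not taken as pairs in these comparisons.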
